A study of Mus musculus with 20 samples.

Results

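Loss of both copies of Runx2 was examined in cultured haematopoietic progenitor cells (HPC), by setting the 3 HPC libraries that were homozygous for a Runx2 knockout (hom) against the 3 wild-type HPC libraries (WT). These 6 libraries were taken by their labels from the 20 samples of the series, 18 of which are RNA-seq libraries. The cells came from mouse bone marrow and were cultured. They had been sorted as positive for Kit and Sca1, negative for lineage markers, and negative for CD201 and CD150, surface proteins that mark the stem cells of the same series. Also used here were 3 heterozygous HPC libraries (het), which share the estimate of spread and whose values are given beside the others, and the WT and hom libraries of the stem cell population (HSC), which was positive for CD201 and CD150. The series speaks of floxed Runx2 mice and of knockout by CRISPR, and the labels do not say which of them a library came from. The age and strain of the mice, the driver of any recombinase, and whether replicates are separate animals or cultures are not given in the sources used here, so the p-values rest on a spread among libraries that may be only technical.

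RUNX2 is a DNA-binding protein of the RUNX family, which in mammals also holds RUNX1 and RUNX3. All of them bind DNA together with the partner CBFB at a short motif, activate or repress genes with the help of cofactors, and are best known in different settings. RUNX2 is the master factor of bone formation, RUNX1 is needed for the emergence of blood stem cells, and RUNX3 acts in T cells and other lymphocytes. In blood, Kit-positive, Sca1-positive progenitors are the stage at which cells take up the myeloid, lymphoid or megakaryocyte and erythroid fates, each with a set of marker genes.

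The 6 libraries held 19060670 to 22284511 counts assigned to genes, and the het libraries 16663497 to 20633138. Levels are given as CPM, counts relative to a library's total after scaling by the TMM factors of the fit. Kit, Ptprc and Cd34, genes of early blood cells, were present in every library (377 CPM or more, as a share of all counts). Of the genes for the proteins the cells had been sorted to lack, Procr (CD201) stood at 4.77 to 5.85 CPM in WT and Slamf1 (CD150) at 8.82 to 12. Ly6a, which encodes Sca1, is listed at 0 in all 18 RNA-seq libraries, as are some genes that every cell uses, so the label could not be checked there. The HPC libraries had 0 counts of the Y-linked gene Ddx3y in WT and hom, and the HSC libraries expressed it (means of 145 CPM in WT and 117 in hom), so that the cell population and the sex of the donors cannot be told apart where HPC and HSC are compared. Along the first principal component of the 9 HPC libraries, which held 28.3% of the variance, WT lay between -24.94 and -22.3, het between 2.45 and 15.44 and hom between 8 and 23.03. On the next component, with 24.2%, het lay between -23.38 and -18.2, apart from WT at 1.44 to 8.38 and from hom. Hom replicate 3 stood at 28.32 there, apart from the other hom libraries at 6.49 and 12.63.

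Runx2 (chr17:44495987-44814797, mm10, minus strand) decreased in the order WT, het and hom in the HPC libraries, with a het mean of 97.0 CPM against 117 in WT. It stood at 112, 120 and 119 CPM in WT, at 98.7, 100 and 92.0 in het and at 21.9, 20.9 and 23.0 in hom. The groups did not overlap, and hom kept 18.7% of the WT mean (log2 fold change -2.42 ± 0.07, SE; edgeR adjusted p = 4.25e-14). The labels do not say which exons the knockout removes, and counts summed over all exons do not show whether the remaining RNA is intact. Runx1 stood at 220 to 236 CPM in WT and at 270 to 300 in hom without overlap (log2 0.29 ± 0.06). Runx3 lay at 147 to 160 and 116 to 146 CPM and passed with the full set of libraries (log2 -0.26 ± 0.08, edgeR adjusted p = 0.0406), and no longer without WT replicate 2 or 3 or hom replicate 1 or 3 (adjusted p = 0.11 to 0.17). It also has a copy on an alternate contig, which makes its level uncertain. Cbfb did not pass (log2 0.07 ± 0.06), nor did any of the 8 other corepressor and partner genes measured, among them Cbfa2t3, Tle1, Tle3, Tle4 and Sin3a (log2 -0.14 to 0.15 over the list without the 3 RUNX genes).

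Promoter sequences show where RUNX-type letters lie next to some of the genes described. RefSeq promoters of the build GRCm38.p6 were searched over the 250 bases before a start site, for each gene the one nearest the 5′ end of its span in the count table, for TGTGGT, the core of the motif that RUNX proteins are known to bind, on both strands (as ACCACA on the other). Shown are Runx2, its relative Runx3 and 2 of the genes with the largest rises, all picked from genes whose windows held a match. Each is printed 5′ to 3′ on the strand of its gene with matches in capitals. Runx2 lies at chr17:44814628-44814877 (minus), Runx3 at chr4:135120395-135120644 (plus), Ly6c2 at chr15:75111972-75112221 (minus) and S100a9 at chr3:90695722-90695971 (minus).
Runx2: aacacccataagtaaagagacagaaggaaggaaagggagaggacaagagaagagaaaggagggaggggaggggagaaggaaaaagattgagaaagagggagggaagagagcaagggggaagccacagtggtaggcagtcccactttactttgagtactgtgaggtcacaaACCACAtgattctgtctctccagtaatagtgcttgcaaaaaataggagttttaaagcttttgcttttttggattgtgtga
Runx3: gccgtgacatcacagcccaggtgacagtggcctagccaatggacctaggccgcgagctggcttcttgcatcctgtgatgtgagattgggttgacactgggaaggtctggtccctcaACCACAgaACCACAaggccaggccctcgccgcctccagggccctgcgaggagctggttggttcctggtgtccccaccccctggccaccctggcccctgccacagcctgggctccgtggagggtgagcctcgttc
Ly6c2: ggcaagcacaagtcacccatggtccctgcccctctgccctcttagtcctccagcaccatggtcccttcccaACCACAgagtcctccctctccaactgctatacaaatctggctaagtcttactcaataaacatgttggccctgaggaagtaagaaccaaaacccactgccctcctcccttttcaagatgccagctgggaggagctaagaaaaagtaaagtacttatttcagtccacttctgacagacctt
S100a9: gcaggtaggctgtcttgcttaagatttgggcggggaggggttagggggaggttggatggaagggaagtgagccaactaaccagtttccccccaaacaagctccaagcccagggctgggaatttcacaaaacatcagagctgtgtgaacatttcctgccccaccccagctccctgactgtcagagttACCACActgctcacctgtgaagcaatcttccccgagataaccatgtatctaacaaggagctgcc
The start site lay at the 5′ end of the span for Runx3 and S100a9, and inside the span by 170 bases for Runx2 and 95 for Ly6c2. Counted from this RefSeq start site, with -1 as the base just before it, the nearest match began at -80 for Runx2, -126 for Runx3, -179 for Ly6c2 and -64 for S100a9, and Runx3 held 2 matches. Of the 10696 tested genes with a promoter in the table, 1212 (11.3%) held a match. The share was 14.7% among the genes called higher in hom (79 of 536), 13.3% among those called lower (60 of 452) and 11.1% among those not called. Among genes called with a change of 2-fold or more it was 20.4% (23 of 113) for the higher and 16.8% (17 of 101) for the lower, while over all 32851 promoters of the table it was 14%. Windows of Rgs8, Abca13, Lhcgr and Yes1 also held a match and are not shown. Those of Runx1 and Cbfb held no match. Nor did those of Mgam, S100a8, F13a1, Elane, Fam20c, Ngp, Gda, Ifi209, H2-Aa, H2-Eb1, Il18r1, Dscam, Abca4, Hs6st2, Nbea and Eda2r. A match is a description of these letters and not evidence of binding, and binding data were not analysed here.

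Of 13855 genes tested, 682 (4.92%) were called higher in hom than in WT and 594 (4.29%) lower, which is 9.21% in all at an edgeR adjusted p under 0.05. Most changes were small. Among the called genes 707 changed by under 1.5-fold, 154 were higher and 136 lower by 2-fold or more, and the median log2 fold change of all tested genes was 0. Groups did not overlap for 1265 of the 1276 called genes, against 26.4% of all genes tested. Calls were spread over levels: from 4.97% of genes under 1 CPM to 11% of those between 1 and 5 CPM and 8.44% of those at 100 CPM or more, with a median size of 1.91 on the log2 scale in the lowest class and 0.29 in the highest. By chromosome the share ran from 6.38% (chromosome 11) to 11.7% (chromosome 10). Within 5 Mb of Runx2, 5 of 90 tested genes were higher and 2 lower, Runx2 itself left out (7.78%). The calls concerned 1206 protein-coding genes and 56 long non-coding RNAs.

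**Figure D1:**
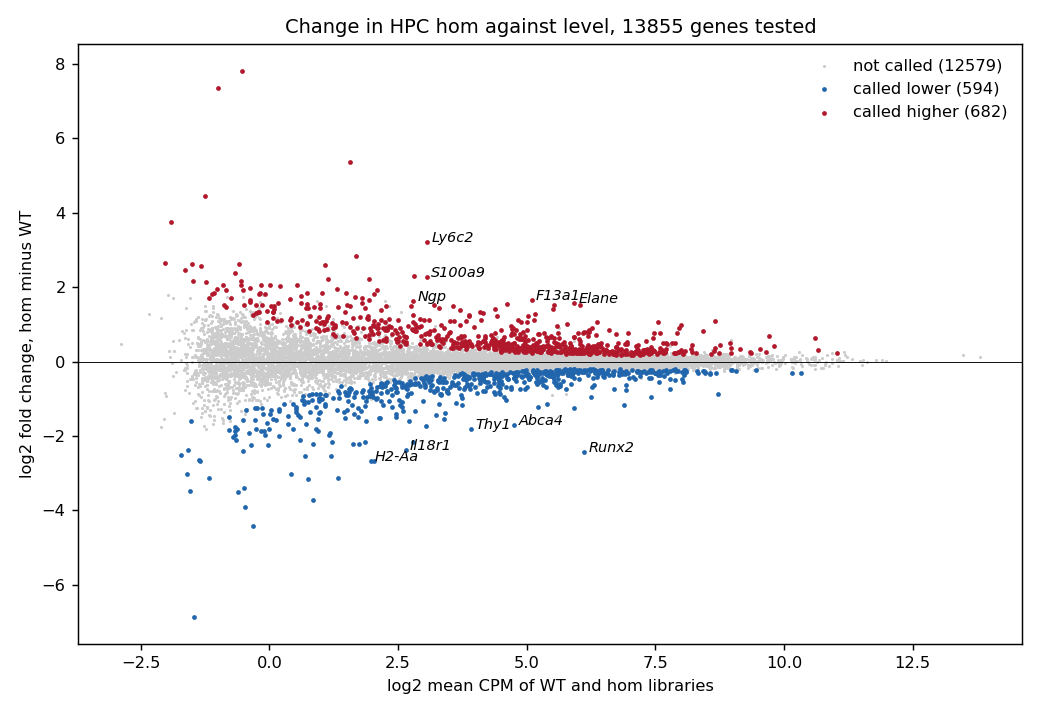
Log2 fold change of hom against WT (vertical axis) by the log2 mean CPM of the 6 libraries (horizontal axis) for 13855 genes, with the 682 genes called higher in red, the 594 called lower in blue and 10 genes named. Runx2 stands alone at its level with a log2 change of -2.42, and changes above 2-fold thin out as the level rises.

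The largest rises and falls took in genes of several kinds. Ly6c2, a surface protein of monocytes (chr15:75108161-75112066), rose from 1.88, 1.35 and 1.62 CPM in WT to 14.3, 14.6 and 16.4 in hom, with het at 10.9, 8.17 and 9.79 (log2 3.22 ± 0.16, edgeR adjusted p = 4.19e-10). Hom, het and WT libraries of this gene formed 3 separate bands. Its close relative Ly6c1 is listed at 0 in all libraries, so how reads were divided between them is uncertain. Abcd2, a peroxisomal transporter of fatty acids, went from 11.5 to 13.4 CPM in WT to 33.1 to 39.1 in hom (log2 1.54 ± 0.10), and Gda, guanine deaminase, from 22.6 to 25.2 CPM to 64.6 to 74.8 (1.53 ± 0.09). Both had het libraries in between, at 25.0 to 29.6 and 38.5 to 50.1 CPM. Mgam, a glucosidase, reached 9.79, 11.4 and 13.6 CPM in hom from 2.07 to 2.84 in WT, and Abca13, a lipid transporter, 3.69 to 6.97 from 1.26 to 2.10.

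Among the falls, Abca4, a flippase best known from the retina, stood at 39.0, 40.1 and 45.5 CPM in WT and at 9.95, 16.4 and 11.6 in hom (log2 -1.71 ± 0.15, edgeR adjusted p = 4.38e-06). Sdc2, a heparan sulphate proteoglycan, lay at 12.6, 12.6 and 12.9 CPM in WT, at 12.8, 11 and 13.3 in het, and at 3.09, 3.74 and 4.62 in hom (log2 -1.73 ± 0.14), so that WT and het overlapped and hom stood apart. Hs6st2, which sulphates heparan sulphate, kept 32.8% of its WT mean, Nbea, a protein of vesicle traffic, 33.2%, and Eda2r, a receptor of the tumour necrosis factor family, 34.6%. Lhcgr, the receptor for luteinizing hormone, kept 21.4%, with 4.13 to 5.94 CPM in WT and 0.922 to 1.28 in hom.

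**Figure D2:**
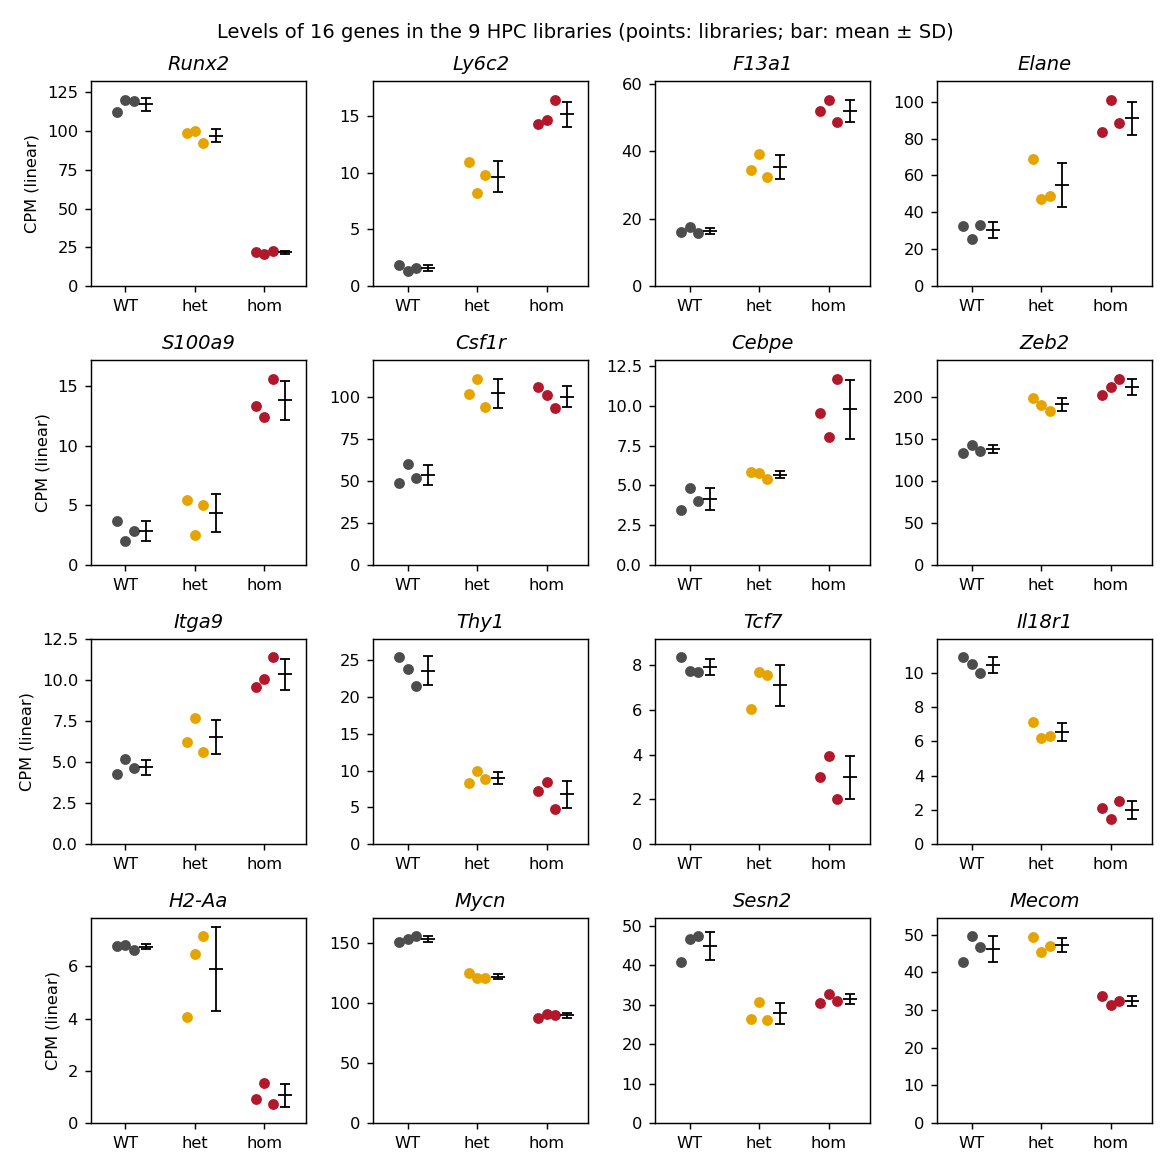
Levels of 16 genes in CPM (linear axis from 0) in each WT, het and hom HPC library (points), with the mean and SD of 3 libraries as a bar at the right of each group. For each gene the WT and hom points do not overlap, while het lies near WT for Tcf7 (6.06 to 7.68 CPM), near hom for Thy1 (8.27 to 9.88) and in between for Il18r1 (6.20 to 7.14).

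Many genes of granulocytes and monocytes were higher in hom. Primary granules are the first granules made by neutrophil precursors. Of their 12 tested genes 7 rose and 0 fell (58.3% called), with a list median log2 change of 0.43. Over all genes tested 4.92% were called higher and 4.29% lower, which is 9.21% in all. Elane, neutrophil elastase, stood at 32.4, 25.6 and 33.4 CPM in WT and at 83.6, 101 and 88.6 in hom (log2 1.58 ± 0.15, edgeR adjusted p = 8.98e-05), with het between at 47.3 to 68.7. The related proteases Ctsg (169 to 185 CPM in WT, 300 to 310 in hom) and Prtn3 (127 to 157 and 216 to 281) rose by log2 0.77 ± 0.06 and 0.78 ± 0.09. Mpo, myeloperoxidase, rose by 0.64 ± 0.08, and its copy on an alternate contig makes the level uncertain. The lectin Fcnb rose from 1.29 to 1.75 CPM to 3.46 to 5.68. Ctsc and Calr of the same list did not pass (log2 0.03 and 0.09). In bulk libraries such values cannot tell more cells of a type from more RNA per cell.

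Of 12 tested genes of later neutrophil stages 9 rose and 0 fell (75% called against 9.21% of all genes, median log2 0.94). S100a9, a subunit of calprotectin, stood at 3.67, 2.01 and 2.88 CPM in WT and at 13.3, 12.4 and 15.6 in hom (log2 2.27 ± 0.24, edgeR adjusted p = 2.30e-05). Unlike for Elane, het overlapped WT here, at 5.46, 2.52 and 5.07. Lyz2, lysozyme, rose from 164 to 182 CPM to 304 to 363, the integrin chain Itgam from 73.4 to 86.6 CPM to 129 to 139, and Cxcr2, the receptor that guides neutrophils, from 19.2 to 20.4 CPM to 32.9 to 38.8. Itgam was higher still in het (158 to 180 CPM). Ngp, a granule protein, rose from 2.49 to 5.05 CPM to 8.06 to 13 with all libraries, and missed the threshold without WT replicate 2 or 3 or hom replicate 3 (edgeR adjusted p = 0.0718 to 0.0828). The other 3 tested did not pass: Ltf, lactoferrin (log2 0.90 ± 0.47), Camp, cathelicidin, at 0.188 to 0.643 CPM (0.02 ± 0.59), and Padi4, which citrullinates proteins (-0.01 ± 0.08). Ly6g, the surface mark of mature neutrophils, was at 0 counts in the WT and hom libraries.

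Of 21 tested monocyte and macrophage genes 13 rose and 0 fell (61.9% called against 9.21% of all genes, median log2 0.68). F13a1, a transglutaminase of monocytes, stood at 16, 17.5 and 15.8 CPM in WT, 34.4, 39.3 and 32.3 in het and 52.0, 55.3 and 48.8 in hom (log2 1.66 ± 0.09), a 3-step order without overlap. Csf1r, the receptor for macrophage colony-stimulating factor, rose from 48.6, 60.3 and 51.9 CPM to 106, 101 and 93.7, and het was as high at 93.9 to 111. Adgre1 (F4/80) rose by log2 1.33 ± 0.09 and Tifab, a regulator of TRAF6, by 1.45 ± 0.12. Cybb, Mpeg1, Irf8, Ccr2, Ms4a6c, Ctss, Cx3cr1 and Cd14 also passed, Cd14 no longer without WT replicate 2 (edgeR adjusted p = 0.0506). Among the 8 that did not pass, Klf4, Cd68, Lgals3 and Fcgr1 had log2 changes of -0.01 to 0.25, and the lowest was -0.6.

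All 4 tested eosinophil genes rose, led by Prg2, the major basic protein (10.0 to 12.3 CPM in WT, 24.8 to 33.7 in hom), and Il5ra, the receptor chain for interleukin-5 (1.51 to 1.59 and 3.79 to 4.79 CPM). In the mast cell and basophil list 7 of 13 rose and 3 fell (76.9% called). Of all genes tested 9.21% were called. Hdc, which makes histamine, rose from 12 to 13.9 CPM to 27.7 to 32.8 with het at 16 to 16.7 (log2 1.22 ± 0.09), and Cpa3, Ms4a2 and Il1rl1 rose by 0.84, 0.80 and 0.63. Gzmb, granzyme B, fell from 159 to 176 CPM to 65.6 to 78.5 (log2 -1.17 ± 0.08), and Fcer1a, the binding chain of the receptor for IgE, fell by 0.77. The members of this list therefore did not move as one.

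Some transcription factors of the myeloid lineages rose as well. Of 23 tested, 7 rose and 2 fell (39.1% called against 9.21% of all genes, median log2 0.19). Cebpe, which drives late granule genes, stood at 3.49, 4.86 and 4.02 CPM in WT and at 9.53, 8.06 and 11.7 in hom (log2 1.24 ± 0.16, edgeR adjusted p = 3.31e-05), with het at 5.41 to 5.82. Zeb2, a repressor needed for several myeloid fates, rose from 134 to 143 CPM to 203 to 222 (log2 0.62 ± 0.06). Irf8, the factor of monocytes and dendritic cells, rose from 56.6 to 69.9 CPM to 92.5 to 110, and its het libraries lay above both at 126 to 135. Gfi1, a repressor needed for granulocyte formation, rose by 0.73 ± 0.09 and Rxra, a nuclear receptor, by 0.87 ± 0.14, and Cebpa and Cebpd by 0.32 and 0.53. Gfi1b and Zfpm1, which act in the megakaryocyte and erythroid lineages, fell by 0.42 and 0.36. Spi1 (PU.1), the central myeloid factor, had a log2 change of 0.08 and did not pass.

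Among receptors for cytokines, chemokines and microbial products most calls were rises. Of 26 tested cytokine receptors 11 rose and 1 fell (46.2% called against 9.21% of all genes, median log2 0.17). Ifngr1, the binding chain for interferon gamma, stood at 96.4, 105 and 99.1 CPM in WT and at 136, 140 and 143 in hom (log2 0.48 ± 0.06, edgeR adjusted p = 1.03e-05). Il6ra rose by 0.55 ± 0.09 and Flt3, the receptor of early lymphoid and dendritic progenitors, from 159 to 201 CPM to 227 to 273, with het higher at 342 to 362. Small rises also passed for Csf2rb, Csf2rb2, Csf3r, Il6st, Il10ra and Tgfbr1 (log2 0.19 to 0.32). Kit did not pass (log2 0.20 ± 0.07, adjusted p = 0.083).

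Of 20 tested chemokines and their receptors 8 rose and 2 fell (50% called against 9.21% of all genes, median log2 0.48). Ccr2, which leads monocytes out of the marrow, rose from 32.7 to 39.3 CPM to 59.9 to 63.6 (log2 0.78 ± 0.09), and the ligands Ccl3, Ccl9 and Ccl6 by 0.55, 0.44 and 0.85. Ccl9 was at 336 to 380 CPM in WT, 441 to 552 in hom and 672 to 716 in het. The falls were Ccr7 and Ccl22, which belong to maturing dendritic cells. Among 19 Toll-like receptors and their adaptors 8 rose and 0 fell (42.1% called, median log2 0.38). Tlr7, a sensor of single-stranded RNA on the X chromosome, rose from 18.2, 21.5 and 17.8 CPM to 45.4, 36.7 and 38.6 (log2 1.07 ± 0.09, edgeR adjusted p = 3.42e-07), and its relatives Tlr8 and Tlr13 by 1.24 and 1.06. Tlr4, Tlr3, Tlr9 and the adaptors Myd88 and Ticam1 did not pass.

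The IFI200 family, a cluster of interferon-inducible DNA-binding proteins on chromosome 1, had 7 of 11 tested members higher and 0 lower (median log2 0.40). Ifi209 (chr1:173630859-173647928) stood at 33.3, 35.1 and 33.2 CPM in WT and at 119, 86.9 and 86.2 in hom (log2 1.52 ± 0.11). Ifi204 (45.3 to 58.2 CPM in WT, 82.4 to 107 in hom), Ifi213 (49.6 to 53.1 and 71.2 to 99.2) and Ifi211 (2.49 to 2.80 and 4.71 to 6.22) rose as well. Het libraries of Ifi209 lay between WT and hom, at 73.6 to 86.0 CPM. Those of Ifi204 (106 to 120 CPM), Ifi213 (79.9 to 105) and Ifi211 (5.16 to 6.72) overlapped hom. A copy of Ifi204 on an alternate contig makes its level uncertain. These rises stood beside an interferon response list in which 2 of 28 rose and 1 fell, a share of 10.7% against the 9.21% of all genes. Irf7, Isg15, Ifit1, Oas2 and Rsad2 did not pass (log2 -0.14 to 0.00). Mx2 did rise, from 21.0 to 23.5 CPM to 33.8 to 34.4 (log2 0.62 ± 0.08).

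**Figure D3:**
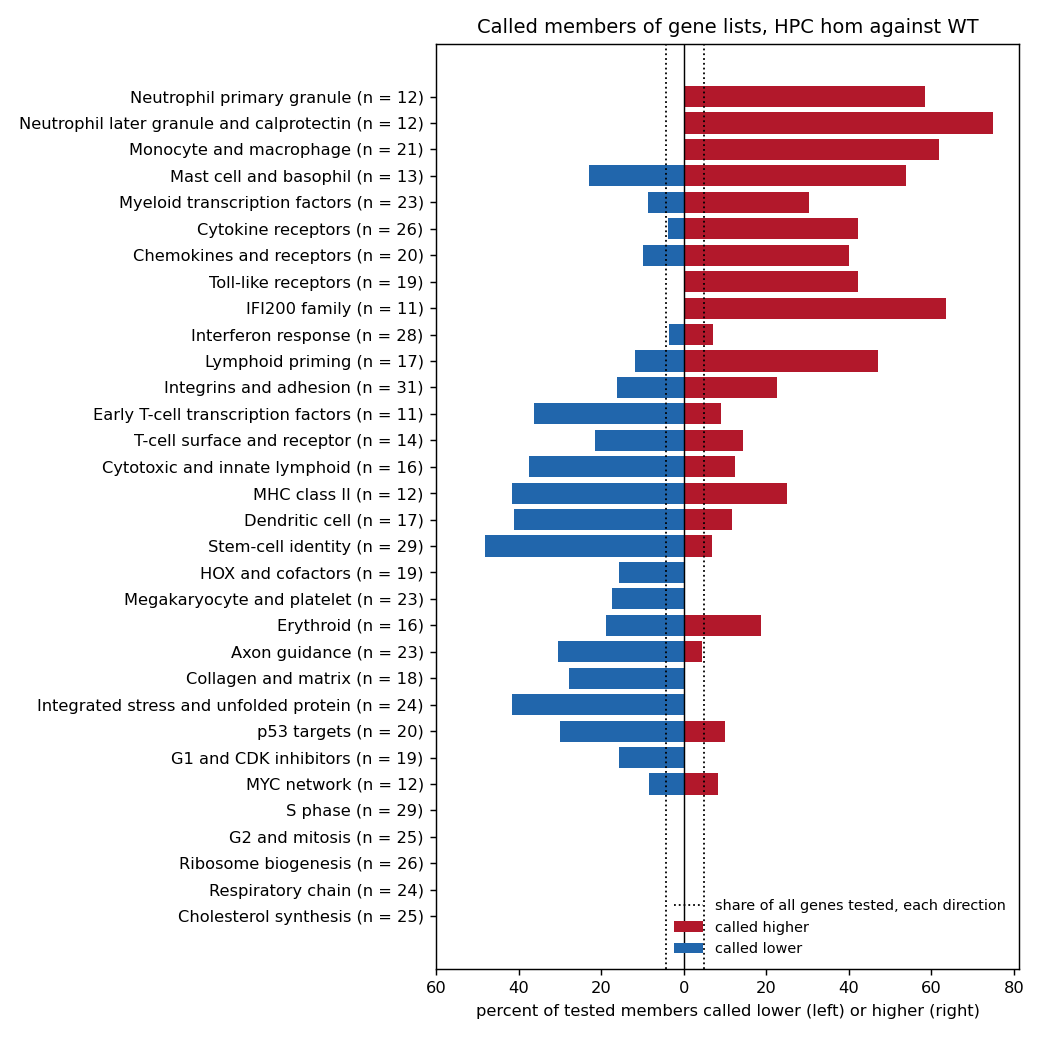
Share of the tested members of 32 gene lists that were called lower (blue, to the left) or higher (red, to the right) in hom than in WT, in percent, with the number tested beside each name and dotted lines at 4.29% and 4.92%, the shares over all 13855 genes. Granule, monocyte and IFI200 lists have bars to the right only, the integrated stress and matrix lists to the left only, and the S phase, mitosis, ribosome, respiratory and cholesterol lists have none.

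Genes of the T-cell and innate lymphoid programmes split. Of 11 early T-cell transcription factors 4 fell and 1 rose (45.5% called against 9.21% of all genes). Tcf7, the factor TCF1 that acts below Notch in early thymocytes, stood at 8.35, 7.75 and 7.69 CPM in WT, at 6.06, 7.68 and 7.55 in het and at 2.98, 3.93 and 2.03 in hom (log2 -1.41 ± 0.19, edgeR adjusted p = 4.36e-05). Tox, a factor of T and innate lymphoid cells, went from 14.7 to 16.5 CPM to 4.52 to 6.31 with het between at 10.9 to 12.8, and Spib from 3.45 to 4.59 to 1.23 to 2.18. Hom was thus the group that stood apart for Tcf7, and all groups were separate for Tox. Gata3 fell from 8.67 to 8.87 CPM to 4.95 to 6.60, a call lost without hom replicate 1 (edgeR adjusted p = 0.0666). Myb rose slightly (log2 0.23 ± 0.06), and no longer without WT replicate 1 or hom replicate 1 or 3 (edgeR adjusted p = 0.0705 to 0.0864). Tcf12, Ets1 and Ikzf1 did not pass.

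Among 14 T-cell surface and receptor genes 3 fell and 2 rose (35.7% called against 9.21% of all genes). Thy1 fell from 25.4, 23.8 and 21.5 CPM to 7.18, 8.39 and 4.76 (log2 -1.80 ± 0.15, edgeR adjusted p = 2.65e-07), and het was nearly as low. Lck, the kinase of the T-cell receptor, fell from 11.1 to 12.8 CPM to 6.36 to 8.25, and Cd7 from 1.62 to 2.85 to 0.266 to 0.776. The level of Lck is uncertain from a copy on an alternate contig and that of Cd7 from exons shared with another gene (12.9%). In the other direction Dntt, the terminal transferase of lymphocyte precursors, rose from 4.86, 7.52 and 6.33 CPM to 18.3, 18.1 and 15.7 (log2 1.48 ± 0.12), with het at 27.0 to 28.8. Genes of mature T cells (Cd3d, Cd8a, Cd4) summed to at most 0.867 CPM in the WT and hom libraries, with Cd3e listed at 0.

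Dntt belongs to a lymphoid priming list in which 8 of 17 rose and 2 fell (58.8% called, median log2 0.35). Wfdc17 stood at 17.4, 16.9 and 14.1 CPM in WT and at 30.3, 29.6 and 26.8 in hom (log2 0.84 ± 0.09), with het higher at 48.5 to 56.9. Cd53, a tetraspanin of leukocytes, rose by 0.46 ± 0.07 and Cd48 by 0.37 ± 0.08. Il7r, the receptor chain of common lymphoid progenitors, had a log2 change of 0.49 and did not pass, as did not Satb1 and Mef2c. Of 19 Notch pathway genes 2 rose and 1 fell, 15.8% in all, against 9.21% of all genes. Notch1 and Notch2 did not pass (log2 0.24 and 0.01), nor did Hes1 (-0.96), a direct target.

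Of 16 cytotoxic and innate lymphoid genes 6 fell and 2 rose (50% called against 9.21% of all genes, median log2 -0.31). Il18r1, the ligand-binding chain of the interleukin-18 receptor, fell from 10.9, 10.5 and 10.0 CPM to 2.08, 1.46 and 2.5 (log2 -2.38 ± 0.17, edgeR adjusted p = 2.27e-08), and its partner chain Il18rap from 107 to 110 CPM to 80.7 to 89.2 (-0.35 ± 0.06). Het libraries of Il18rap overlapped WT at 104 to 109 CPM. Of the 19 tested members of the interleukin-1 and interleukin-18 receptor family these 2 fell and Il1rl1 rose, 15.8% in all. Il1r1, Il1rap, Il18 and Myd88 did not pass. Klrb1c (NK1.1) rose from 0.374 to 0.459 CPM to 1.21 to 1.60, whereas Klrd1 fell by 0.65. The GIMAP GTPases, neighbours on chromosome 6, also split: Gimap4 rose from 19.0 to 24.1 CPM to 33.8 to 40 and Gimap3 from 0.0874 to 0.607 to 1.13 to 1.70, and Gimap5 (log2 -0.44 ± 0.08) and Gimap1 (-0.36 ± 0.07) fell.

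Genes of antigen presentation showed opposite changes within the list. Of 12 MHC class II genes 5 fell and 3 rose (66.7% called against 9.21% of all genes). H2-Aa stood at 6.79, 6.82 and 6.64 CPM in WT and at 0.905, 1.55 and 0.707 in hom (log2 -2.67 ± 0.25, edgeR adjusted p = 1.02e-06), and H2-Eb1 fell by the same -2.67 ± 0.30. Cd74, the invariant chain, went from 27.4 to 28.4 CPM to 11.6 to 19.1 and Ciita, the master activator of the class, from 2.25 to 3.22 to 0.745 to 1.79. H2-Ab1, the beta chain that pairs with H2-Aa, did not pass (log2 0.03). H2-Ob, a chain that restrains peptide loading, rose from 73.2 to 88.8 CPM to 96.5 to 118, with het at 171 to 184, and the protease Ctss rose by 0.68 ± 0.12. Several of these genes (H2-Aa, H2-Eb1, H2-Eb2, H2-Ob and H2-DMa) have copies on alternate contigs, so their levels are uncertain.

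In the dendritic cell list 7 of 17 fell and 2 rose (52.9% called against 9.21% of all genes, median log2 -0.18). Ccr7, which guides dendritic cells to lymph nodes, stood at 8.17, 7.66 and 9.22 CPM in WT, at 12, 17.3 and 17.1 in het and at 5.22, 4.80 and 3.63 in hom (log2 -0.88 ± 0.17, edgeR adjusted p = 0.00162). Fscn1, the actin bundler of mature dendritic cells, had the same order, with 3.76 to 4.90, 5.34 to 9.77 and 0.801 to 2.38 CPM, and so had Ccl22 (6.63 to 10.1, 10.4 to 18.3 and 4.01 to 5.24). Het and hom thus lay on opposite sides of WT for these 3 genes. Cd83 fell with all libraries (log2 -0.86 ± 0.20) and missed the threshold without WT replicate 3 (edgeR adjusted p = 0.0528). Itgax, Siglech and Relb fell by 0.69, 1.09 and 0.36, and the rises were Irf8 and Flt3.

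**Figure D4:**
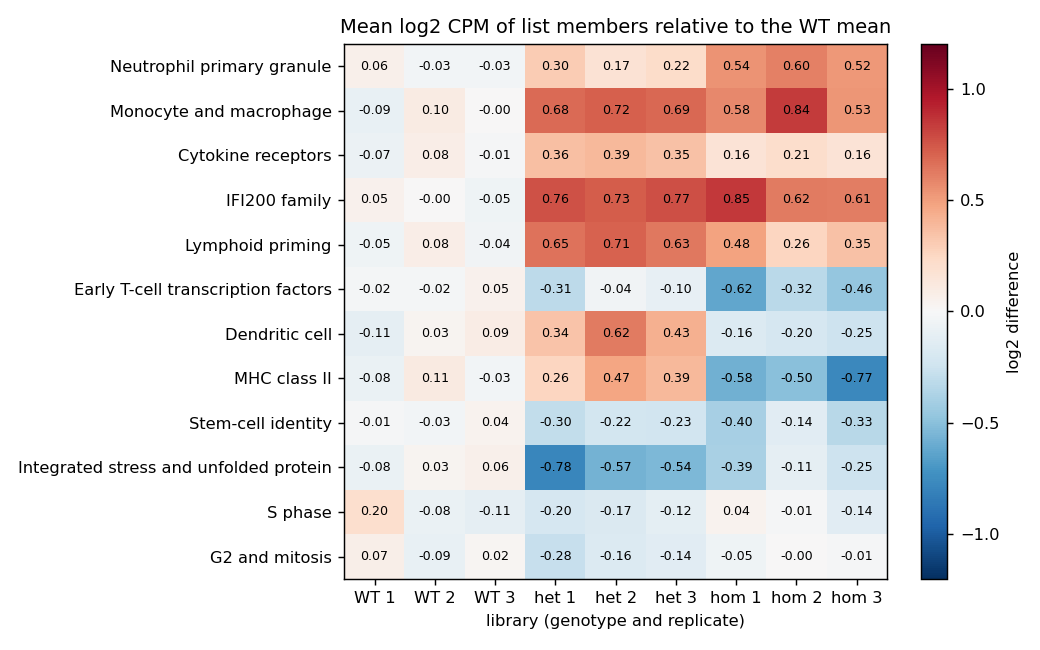
Mean log2 CPM of the tested members of 12 lists in each HPC library relative to the WT mean (colour and printed value, log2 units). MHC class II and dendritic cell lists lie above WT in the het libraries (0.26 to 0.62) and below it in the hom libraries (-0.77 to -0.16), and the integrated stress list is lower in het (-0.78 to -0.54) than in hom (-0.39 to -0.11).

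Among genes that mark stem cells most calls were falls. Of 29 tested stem-cell identity genes 14 fell and 2 rose (55.2% called against 9.21% of all genes, median log2 -0.25). Mecom, the factor EVI1 that holds stem cells undifferentiated, stood at 42.7, 49.6 and 46.7 CPM in WT, at 49.3, 45.5 and 47.1 in het and at 33.8, 31.2 and 32.3 in hom (log2 -0.51 ± 0.07, edgeR adjusted p = 1.02e-04). Tie1, a receptor of endothelial and stem cells, fell from 93.6 to 99.4 CPM to 59.4 to 65.8, and Ltb, lymphotoxin beta, from 124 to 138 to 68.7 to 89.5, the latter with a copy on an alternate contig. Esam, a junction protein, fell by 1.05 ± 0.18. For Mecom the het libraries overlapped WT, and for Tie1 they lay between. Slamf1 fell by 0.68 ± 0.18, and no longer without WT replicate 3 or hom replicate 1 (edgeR adjusted p = 0.0832 to 0.122). Hlf, a factor of stem cells, went the other way, from 68.6 to 75.0 CPM to 93.6 to 109 (0.49 ± 0.07), with het higher at 116 to 138. Procr, Hoxa9, Cd34 and Angpt1 did not pass.

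The heptad is a group of factors that bind with RUNX1 in stem cells. In a list of 10 genes for it, 1 rose (Runx1) and 2 fell, 30% against 9.21% of all genes. Gata2 fell by 0.24 ± 0.07, and no longer without WT replicate 2 or 3 or hom replicate 1 or 3 (edgeR adjusted p = 0.106 to 0.153). Kdr, a receptor for VEGF, fell by 0.60 ± 0.15, and no longer without WT or hom replicate 3 (edgeR adjusted p = 0.0624 to 0.0646). Tal1, Lyl1, Lmo2, Erg and Fli1 did not pass (log2 -0.18 to 0.15). HOX genes and cofactors gave 3 calls of 19 (15.8%), all lower, and each was lost without some libraries (edgeR adjusted p = 0.0509 to 0.184). Meis1 lost its call without WT replicate 2 or hom replicate 1. Hoxb3 lost its call without WT replicate 2 or 3 or hom replicate 1 or 2, and Hoxb2 without WT replicate 1 or 3 or any hom replicate. Of 23 megakaryocyte and platelet genes 4 fell and 0 rose (17.4% called). Itga2b (CD41) stood at 306, 294 and 338 CPM in WT and at 178, 249 and 212 in hom (log2 -0.55 ± 0.10), and het was lower still at 157 to 187. Pf4, Vwf, Gp1ba, Gp9 and Itgb3 did not pass. The erythroid list had 3 higher and 3 lower of 16 (37.5% called). Aqp1, a water channel of red cells, rose from 17.4 to 21.6 CPM to 27.2 to 38.0, while Hemgn fell from 93.4 to 96.9 CPM to 53.6 to 65.1 (log2 -0.67 ± 0.07). Gata1, Epor and Tfrc did not pass (log2 -0.11 to 0.14).

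Adhesion and guidance molecules gave calls in both directions. Of 31 integrins and adhesion genes 7 rose and 5 fell (38.7% called against 9.21% of all genes). Besides Itgam, Itga9, an integrin chain that binds tenascin, rose from 4.27, 5.18 and 4.63 CPM to 9.58, 10.1 and 11.4 (log2 1.14 ± 0.14, edgeR adjusted p = 2.30e-05), while the main beta chains Itgb1 and Itgb2 did not pass (0.05 and 0.12). Of 23 axon guidance genes 7 fell and 1 rose (34.8% called). Sema7a, a semaphorin found on blood cells, stood at 34.3, 30.8 and 32.8 CPM in WT and at 18, 17.1 and 12.9 in hom (log2 -1.03 ± 0.10), with het between. Dscam, an adhesion receptor of neurons, fell from 5.23 to 6.73 CPM to 0.895 to 1.55, with het overlapping WT at 4.56 to 5.32. The rise was Nrp1, a co-receptor of semaphorins and VEGF (0.74 ± 0.17).

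Matrix, WNT and Src family genes fell where they were called, while TGF-beta and BMP, lipid and nuclear receptor genes had calls in both directions. The share called was 15.8% for WNT, 15.4% for Src, 12.5% for TGF-beta and BMP and 14.3% for nuclear receptors. Over all genes it was 9.21%. Of 18 collagen and matrix genes 5 fell and 0 rose. Serpinh1, the chaperone of collagen, went from 1.97, 2.80 and 2.27 CPM to 0.585, 0.243 and 0.0471 (log2 -3.03 ± 0.45, edgeR adjusted p = 1.54e-04), close to the 0.135 to 0.157 CPM that 3 counts are worth in these libraries. Of 19 WNT pathway genes 3 fell: Tcf7, the receptor Fzd2 (2.57 to 3.08 CPM in WT, 0.692 to 0.971 in hom) and the ligand Wnt10b (4.58 to 6.86 and 2.57 to 3.94). Bmpr1a, a receptor of bone morphogenetic proteins, fell from 4.06 to 5.46 CPM to 1.79 to 2.13, with het as low at 1.80 to 2.87, among 24 TGF-beta and BMP genes of which 2 rose. Of 13 Src family kinases and regulators Yes1 (4.89 to 6.12 CPM in WT, 0.873 to 1.38 in hom) and Lck fell, and Src, Fyn, Lyn and Fgr did not pass. The exons of Yes1 overlap another gene over 14.5% of their length. Lipid genes gave 4 rises and 1 fall of 25. Lpl, which frees fatty acids from lipoproteins, rose from 3.63 to 5.64 CPM to 10.6 to 15.5 (1.51 ± 0.18). Pgr, the progesterone receptor, stood at 16.5, 16.4 and 13.4 CPM in WT, 45.9, 32.2 and 29.9 in het and 7.03, 3.93 and 6.74 in hom, so that here too het and hom lay on either side of WT (hom against WT, log2 -1.39 ± 0.23). Of 21 nuclear receptors tested, 2 were called higher and Pgr alone lower.

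Growth regulators changed in single genes. Mycn, a MYC family member of stem and progenitor cells, stood at 151, 154 and 156 CPM in WT, at 125, 121 and 121 in het and at 87.9, 91.4 and 90.3 in hom (log2 -0.77 ± 0.05, edgeR adjusted p = 2.27e-08), an order of 3 narrow bands. Myc itself (log2 0.09) and Max (0.04) did not pass, and Mxd1, an antagonist of MYC, rose by 0.43 ± 0.08. Cyclin D1 (Ccnd1) fell from 16 to 18 CPM to 6.93 to 8.54 (-1.10 ± 0.13), with 21.7% of its exons overlapping another gene, while Ccnd2, Ccnd3, Cdk4 and Cdk6 did not pass (-0.18 to 0.08). Pim2, a survival kinase downstream of STAT5, fell from 262 to 291 CPM to 143 to 197 (-0.73 ± 0.10), and Cish, Pim1 and Mcl1 did not pass (-0.07 to 0.18). Bcl2 and Bcl2l1 fell by 0.28 and 0.30 with all libraries, and each lost its call without 1 of 3 libraries (edgeR adjusted p = 0.0505 to 0.0659), for Bcl2 WT replicate 2 or hom replicate 1 or 2 and for Bcl2l1 WT replicate 1 or 2 or hom replicate 3.

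Of 24 genes of the integrated stress response and the unfolded protein response 10 fell and 0 rose (median log2 -0.23). That is 41.7% called, against 9.21% of all genes. The integrated stress response is the programme by which the factor ATF4 raises amino acid supply genes when translation is slowed. Sesn2, a stress sensor, stood at 40.9, 46.7 and 47.4 CPM in WT and at 30.4, 32.8 and 30.9 in hom (log2 -0.52 ± 0.08, edgeR adjusted p = 2.92e-04). Chac1, which degrades glutathione, fell from 15.9 to 19.5 CPM to 10.5 to 13.3, and Psat1, of serine synthesis, from 409 to 431 to 307 to 362. Het libraries lay below hom for these 3 genes, at 26.1 to 30.8 CPM with overlap for Sesn2, and at 5.34 to 6.53 and 201 to 235 without overlap for Chac1 and Psat1. The other called members were Xbp1, Slc7a5, Shmt2, Slc3a2, Mthfd2, Herpud1 and Ddit3, and Slc7a5 missed the threshold without WT replicate 3 or hom replicate 3 (edgeR adjusted p = 0.0511 and 0.0531). Chaperones of the endoplasmic reticulum, Hspa5, Hsp90b1, Pdia4 and Dnajb9, did not pass (log2 0.00 to 0.09). Atf4 is listed at 0 in all libraries and cannot be read.

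Of 20 p53 targets 6 fell and 2 rose (40% called against 9.21% of all genes, median log2 -0.14). Zmat3, an RNA-binding target, fell from 25.8 to 30.4 CPM to 16.3 to 20.8 (log2 -0.60 ± 0.10) while het overlapped WT at 25.4 to 28.5, and Sesn1 rose from 128 to 140 CPM to 161 to 185. Mdm2, Ccng1 and Bax did not pass (0.02, -0.09 and -0.18). Among 19 immediate early genes 3 fell and 0 rose, 15.8% in all. Nr4a3 fell from 2.99 to 4.13 CPM to 0.905 to 1.84 (-1.29 ± 0.23), with het above WT at 6.18 to 7.02. Ier5 and Jund also fell, and lost their calls without hom replicate 1 (edgeR adjusted p = 0.0553 and 0.0526), Jund also without any WT replicate or hom replicate 3 (0.0675 to 0.115). Fos, Egr1, Jun and Nr4a1 did not pass.

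Proliferation and core metabolism gave hardly any calls. None of 29 S phase genes (log2 -0.16 to 0.11), 25 genes of G2 and mitosis (-0.22 to 0.06), 26 of ribosome biogenesis (-0.29 to 0.12), 24 of the respiratory chain (-0.17 to 0.18), 25 of cholesterol synthesis (-0.20 to 0.16) or 10 encoded by mitochondria (-0.29 to 0.31) passed, where 9.21% of all genes did. Mki67 and Top2a, marks of cycling cells, had log2 changes of -0.02 and 0.05, and the replication helicase gene Mcm2 one of -0.12. Of 27 glycolysis and hypoxia genes Pfkl fell by 0.24, and not without any 1 of the WT replicates or hom replicate 3 (edgeR adjusted p = 0.0554 to 0.172). The RGS list had 1 call of 18, a share of 5.56% against 9.21% of all genes. It was the rise of Rgs8, which ends G-protein signals, from 1.57 to 2.15 CPM to 6.17 to 6.65. Of the 6 bone genes known as RUNX2 targets with enough counts, Fam20c, a kinase of secreted proteins, rose, and Spp1 and Mmp13 did not pass (log2 0.13 and -0.51).

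Markers of other cell types that the sorted gate could hold were read beside these groups, as shares of all counts. Neutrophil markers (Ly6g, Camp, Ltf and Ngp) summed to 4.63 to 9.45 CPM in WT and 11.9 to 19.3 in hom, with Ly6g at 0. Those of monocytes (Csf1r, Ccr2, Adgre1 and Cd14) summed to 99.3 to 116 and 188 to 202 CPM, and those of erythroid cells to 2.34 to 2.92 and 5.19 to 6.36. Markers of megakaryocytes summed to 414 to 486 CPM in WT and 274 to 390 in hom, and of NK cells to 7.45 to 8.32 and 5.84 to 6.77. Itga2b made up most of the megakaryocyte sum, while Pf4 (112 to 131 CPM in WT, 91.8 to 132 in hom) and Gp9 (7.81 to 11 and 6.51 to 10.8) overlapped. The NK sum joined opposite changes, as Klrd1 fell (7.05 to 7.95 CPM in WT, 4.18 to 5.25 in hom) and Klrb1c rose (0.374 to 0.454 and 1.2 to 1.61). B-cell markers stayed at or under 0.468 CPM and mast cell proteases at or under 1.52 CPM. Several of these markers are themselves members of the lists above, and the part of such cells in the results was not tested.

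The same genotype was compared between HPC and HSC with one fit of all 18 libraries, in which 431 of 15431 genes (2.79%) had a hom effect that differed, 164 higher and 267 lower in HSC than in HPC. With genes kept only at 1 CPM or more in 3 libraries, 409 were called and the share above rose from 38.1% to 50.9%. The count moved widely when 1 library was left out, from 149 without HPC WT replicate 2 to 941 without HSC hom replicate 3, and values without each library are given with the other limits. Of the 1276 genes called in HPC, 824 had the same sign in HSC and 209 had a called difference. Signs were counted whatever the size of the change, and the share of same signs over all genes was not computed. The 1276 genes were picked by their HPC change, which is part of the difference. The share of called differences among them therefore cannot be compared with the 2.79% of all genes. CPM in this paragraph come from that fit and differ slightly from those above. Lpl turned around: in HPC it rose from 3.93 to 6.05 CPM to 11.4 to 16.7, and in HSC it fell from 5.98 to 8.06 to 1.47 to 2.22 (difference in log2 change -3.53 ± 0.30, edgeR adjusted p = 5.35e-07). Mycn fell in HPC from 163 to 168 CPM to 94.3 to 98.1 and in HSC from 303 to 319 to 264 to 287, a difference of 0.61 on the log2 scale. Zeb2, Irf8, F13a1 and Lyz2 rose in HPC, with differences of -0.66, -0.87, -1.77 and -1.04. Their HSC changes were small, at -0.04 ± 0.07, -0.16 ± 0.11, -0.11 ± 0.18 and -0.06 ± 0.07. Ccr2 rose in HPC and fell in HSC, there from 2.92 to 4.32 CPM to 0.718 to 1.13 (HSC log2 -1.88 ± 0.21, difference -2.65). For Irf8 the HSC libraries held 9.88 to 12.8 CPM in WT and 9.03 to 11.2 in hom, with overlap. Il18r1, H2-Aa, Tox, Rgs8 and Ifi209 changed in HPC, and their HSC changes of -1.96 ± 0.18, -1.54 ± 0.32, -1.28 ± 0.13, 1.89 ± 0.23 and 1.97 ± 0.28 had the same sign. For these genes the difference between HSC and HPC was not called. Donor sex went with the population, so that population and sex cannot be told apart.

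**Figure D5:**
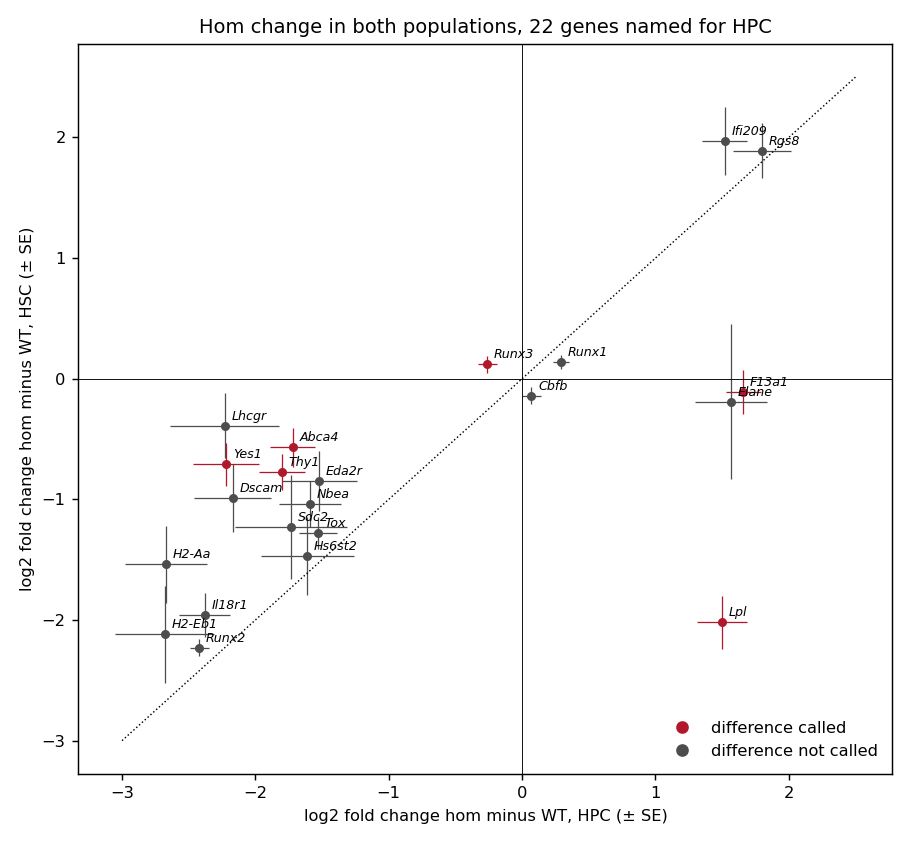
Log2 fold change of hom against WT in HSC (vertical axis) by that in HPC (horizontal axis), each with its SE, for 22 genes named for HPC with at least 1 CPM in HSC; the dotted line marks equal changes. Lpl lies at 1.5 in HPC and -2.02 in HSC, Runx2 near the line at -2.42 and -2.23, and the 6 genes with a called difference are in red.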

How the data were processed

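Gene counts of 18 polyadenylated RNA-seq libraries were used. The deposited counts are raw read pairs per gene, summed over exons by featureCounts 2.0.6 in its unstranded setting with an mm10 RefSeq annotation, per the file headers. The submitters' processing notes also name FastQC, Trim Galore 0.6.10, STAR 2.7.11a and the mm39 build, and coordinates are printed as the tables give them. Each of the 2 tables holds 49997 genes. Reads of a gene and an antisense partner cannot be told apart, and exons shared by overlapping genes or copied on alternate contigs make a level uncertain.

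HPC libraries (9) were fitted together in edgeR 4.0.16 (R 4.3.3) with TMM factors, filterByExpr and robust quasi-likelihood F tests. Calls are genes with a Benjamini-Hochberg adjusted p under 0.05, adjusted across every tested gene. The difference between HSC and HPC was an interaction in one fit of 18 libraries. Values after ± are standard errors. CPM were computed here from the counts. List means used log2 CPM with a prior count of 2. A level of 3 counts equals 0.135 to 0.18 CPM in the HPC libraries, which covers counting error only. The scripts were tested on simulated counts. No libraries of a group were duplicates by a chi-square comparison of their counts.

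The members and the 53 gene lists (1133 entries, 1132 found) were chosen with earlier results of these data known. Named are the RUNX genes and Cbfb; the 15 largest rises and 15 largest falls among called genes without overlap, with at least 5 CPM in the higher group and predicted genes left out; at most 5 called genes of each list, taken by p; sort markers; and the 8 largest differences in each direction between HSC and HPC. Any other gene named is a member of a list that was described whole, or was chosen after its values were seen. Of the 171 named genes called in HPC, 129 were called under every alternative. Where 1 of the other 42 is described as changed in HPC, this stands beside it. Calls of genes outside these 171, such as Cebpa, Tlr8 and Ccl22, were not checked singly under the alternatives. The lack of a remark there says nothing of their stability. Alternatives were size factors by RLE, all genes with any count, a minimum of 1 CPM in 3 libraries, DESeq2 1.42.0, the 6 hom and WT libraries alone, the replicate number as a block, and leaving out each library. Some named genes are not reported here, and counts of lists include them.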

Additional observations from a re-analysis of the deposited data

Results flagged for a closer look

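For 45 of the named genes the hom effect differed between HSC and HPC by the interaction test (edgeR adjusted p under 0.05). The effect in HSC was lower for 25 and higher for 20. Over all 15431 genes of that fit 2.79% differed. Some of the 45 were named for a large called difference and most others for a called HPC change, so their number is no share. The HSC and HPC changes had opposite signs for 29. This counts HSC changes within their SE of 0, as for Zeb2 (-0.04 ± 0.07), Lyz2 (-0.06 ± 0.07) and F13a1 (-0.11 ± 0.18). Values are the HSC effect minus the HPC effect on the log2 scale. Of the 45, 21 stayed called in each of the 12 fits without a library and 24 were lost in at least 1 of them (adjusted p = 0.0507 to 0.182), and none reversed. No explanation was tested, and the sex of the donors went with the population.

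Among genes of myeloid cells that stayed called, the difference was -5.26 for Ly6c2, -4.25 for Prg2, -4.03 for Ifitm6, -2.65 for Ccr2, -1.77 for F13a1, -1.04 for Lyz2, -0.87 for Irf8 and -0.66 for Zeb2. Other genes that stayed called were Lpl (-3.53), F10, a clotting factor (-3.99), Abcd2 (-1.79), Aqp1 (-1.63) and Ifngr1 (-0.56) below, and Zfp532, a zinc finger protein (2.39), Yes1 (1.51), Esam (1.12), Thy1 (1.03), Sema7a (0.77), Jag2, a Notch ligand (0.72), Tie1 (0.64) and Mycn (0.61) above. In HPC Zfp532 went from 4.50 to 5.07 CPM in WT to 0.302 to 0.730 in hom, and in HSC from 33.4 to 36.1 to 15.8 to 27.3. Tie1 stood at 196 to 200 CPM in HSC WT and 170 to 217 in HSC hom, with overlap.

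Differences lost without 1 to 3 of the libraries were those of Gda (-2.98), Mgam (-2.06), Klrb1c (-5.57), Wfdc17 (-1.19), Gimap4 (-0.63), Dpysl5 (3.84), Gpr174 (2.67) and Abca4 (1.14). Dpysl5, a cytoskeletal protein of neurons, had 1.27 to 1.94 CPM in HPC WT and 0 to 0.104 in HPC hom, against 8.79 to 15.7 and 3.49 to 10.2 in HSC. Differences lost without 6 or more of the libraries were those of Fcer1a (-4.79), Gpnmb (-2.75), Fam20c (-2.27), Ccl6 (-1.89), Skil (-0.94), Adgre1 (-0.89) and Tlr2 (-0.69) below, and Cox6a2 (4.85), Apol10b (3.21), Trappc9 (1.75), Fzd2 (1.62), Cdcp1 (1.60), Usp18 (0.70), Col4a1 (0.38), Runx3 (0.38) and Dnmt3a (0.35) above. Fcer1a was at 0 in all HSC hom libraries, so its fitted difference is no bound. The HSC libraries of Ly6c2, Prg2, Ifitm6, F10, Klrb1c, Fcer1a and Cox6a2 held under 0.7 CPM, and some held 0, so the size of those differences depends on a few counts, as does that of Apol10b and Dpysl5 with their HPC hom libraries. Trappc9 stood at 106, 108 and 107 CPM in HPC WT and 58.7, 55.1 and 52.5 in HPC hom, against 58.7 to 81.7 and 91.6 to 165 in HSC.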

How the results depend on the processing

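The count of genes called in HPC hom against WT (1276) lay between 1192 and 1543 under the other normalization, filters, tool and set of libraries and between 871 (without WT replicate 2) and 1198 (without hom replicate 2) when 1 library was left out, and was 979 without hom replicate 3, which stood apart. No named gene reversed. The 42 named genes whose call was lost each lost it in at least 1 fit without a library, and some also with the hom and WT libraries alone, with the replicate block or without a filter. For the difference between HSC and HPC (431), the count was 738 with low counts left unfiltered and 831 by DESeq2, and its share above was 50.9% with at least 1 CPM in 3 libraries and 50.3% without HPC WT replicate 3. It ranged from 149 to 941 without a library: 149, 151, 257 and 155 without HPC WT replicate 2, WT replicate 3, hom replicate 1 and hom replicate 3, 220, 194 and 286 without HSC WT replicates 1, 2 and 3, 167 without HSC hom replicate 2 and 941 without HSC hom replicate 3. The cause was not tested. Genes near the level of 3 counts (0.135 to 0.18 CPM) are limited by depth.

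With the replicate number as a block 1348 genes were called in HPC and 414 for the difference. The numbers give no pairing in the labels, and deviations of same-numbered WT and hom libraries had correlations of 0.09, 0.05 and 0.23. Hom replicate 1 correlated best with WT replicate 2 (0.10) and the other hom libraries with their own number.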

Other observations

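Genes called in HPC with no counts in one of the groups are given as counts, since a fold change against 0 is no bound. Sva, a secreted protein on chromosome 6, had 0 counts in all WT HPC libraries, 37, 19 and 34 in het and 25, 24 and 34 in hom. The long non-coding RNA Gm32920 on chromosome 1 had 0 counts in WT, 10, 18 and 15 in het and 9, 21 and 31 in hom. Another non-coding RNA on chromosome 6, LOC115490344, had 7, 14 and 26 counts in WT, 17, 17 and 26 in het and 0 in hom. These 3 genes were chosen after their values were seen.

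A 0 in these tables does not show that a gene was silent. Of 21896 protein-coding genes 5719 had 0 counts in all 18 libraries, among them genes that every cell uses or that dividing cells need: Actg1, a cytoplasmic actin, P4hb, a protein disulphide isomerase, and Rrm2, a subunit of ribonucleotide reductase. Such genes also lay in runs. On chromosome 11, 12 neighbouring protein-coding genes from Gcgr to Pycr1 (chr11:120529185-120643748), with P4hb, Arhgdia, Alyref and Anapc11 among them, were all at 0, and on chromosome 15 so were Mief1, Atf4 and Rps19bp1 (chr15:80233964-80264306) and, elsewhere, Ly6a and Ly6c1 (chr15:74994877-75048920). Of 1017 different list members found, 30 were at 0 in all libraries, among them Lcn2, Cd3e, Csf2ra, Gzma, Ifit3 and Chil3, and 149 in all were not tested. The cause was not tested.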
